A study of Macaca mulatta with 12 samples.

Results

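Ependymal cells were chosen by the unique molecular identifiers (UMIs, 1 per captured transcript) of 7 genes, ARMC3, ZBBX, ADGB, LRRC9, FHAD1, SPAG6 and SLC47A2. A nucleus had to hold at least 5 UMIs of these genes together, at most 1 of the neuronal splicing factor RBFOX3, and at most 1 of GAD1 and GAD2, which make GABA. Of 26400 nuclei, 835 met the rule (3.16%, exact 95% interval 2.96 to 3.38%). The study isolated nuclei from frozen amygdala of rhesus macaques (Macaca mulatta), a temporal lobe structure that takes part in fear and social behaviour, and read the 3′ ends of their RNA in droplets. Its 12 labelled samples carry no treatment and form 1 group, and neither age nor sex is given. Their titles number 3 specimens with 4 libraries each, but no label ties a nucleus or a barcode suffix to a sample. All nuclei were therefore counted as 1 pool, and no difference below has a replicate error or a test.

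Ependymal cells are the ciliated epithelium that lines the brain's ventricles. Each carries a tuft of motile cilia whose beating moves cerebrospinal fluid. A motile cilium is built around an axoneme, a ring of doublet microtubules with a central pair, on which rows of dynein motors drive bending. The amygdala borders the inferior horn of the lateral ventricle, so a dissected block can include this lining, but the labels do not say whether it did.

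Nuclei fall into 3 barcode sets by the suffix of their barcode, and these may be technical. They held 295 of 9201 (3.21%), 305 of 8900 (3.43%) and 235 of 8299 nuclei (2.83%). The 3 shares had overlapping intervals of 2.86 to 3.59%, 3.06 to 3.83% and 2.49 to 3.21%. A median ependymal nucleus had 1977 UMIs (range 705 to 12129) and 1372 detected genes, and the set medians were 1959, 2018 and 1961 UMIs. Between sets 1 and 2, 1 and 3, and 2 and 3, 20, 26 and 22 barcodes were shared over all nuclei and 0 among ependymal nuclei.

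Several groups served for comparison. Astrocytes were taken by their own rule, at least 4 UMIs of ADGRV1, ALDH1A1, ACSBG1, RGS20, GLI3 and ETNPPL in a nucleus outside the ependymal rule, which gave 8234 nuclei with a median of 1957 UMIs. Of these, 1813 (22.0%) exceeded the neuronal limits set for ependymal nuclei, so each comparison was repeated with the 6359 astrocytes that kept those limits and held at most 1 UMI of the 7 rule genes (median 1781 UMIs). They are called neuron-poor astrocytes here. The 8234 held 28628568 UMIs and the 6359 held 12718622, so most UMIs of the 8234 came from the nuclei left out. The 8 neuronal markers that no rule used summed to 11952 CPM in the 8234 and 4499 CPM in the 6359. Since the 6359 were also picked for few UMIs of the rule genes, ratios of ciliary genes to them rest in part on the rule's own values. All 25565 nuclei outside the ependymal rule had a median of 5230 UMIs. Levels are counts per 1000000 (CPM) of the UMIs summed over a group, and differences are log2 ratios of these levels. Intervals are exact 95% intervals and cover counting error only.

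The rule's own genes are a description, since they chose the nuclei. The 7 genes summed to a median of 14 UMIs per ependymal nucleus, with quartiles of 10 and 19 and a maximum of 45. SLC47A2, a proton-coupled exporter of organic cations, had a UMI in 91.3% of ependymal nuclei and stood at 1677, 1691 and 1698 CPM in the 3 sets. SPAG6, a central-pair protein, was the least often seen, in 64.0%. Ependymal nuclei held 81.6% of all UMIs of ARMC3 in the table and 54.7% of those of FHAD1. Another 80 nuclei reached 5 UMIs but failed the neuronal limits. RBFOX3 was at 0 in 783 ependymal nuclei (93.8%), and GAD1 and GAD2 were both at 0 in 756 (90.5%).

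The rule's threshold fell in a thinly filled range. Among nuclei within the neuronal limits, 8741 held no UMI of the 7 genes, 838 held 1, 81 held 2, 20 held 3, 13 held 4, 22 held 5, 27 held 6 and 34 held 7. Just outside the threshold, nuclei with 3 or 4 UMIs carried 12895 and 17835 CPM of the genes of 3 axoneme lists (dyneins, spokes and central pair, tektins and doublet proteins), and those with 2 UMIs carried 3343 CPM. Just inside, nuclei with 5, 6 or 7 UMIs carried 43706, 28028 and 45534 CPM. These levels are pooled, and the step was smaller by nucleus. A median nucleus with 3, 4 or 5 UMIs of the rule genes had 33, 43 and 48.5 UMIs of these lists. Median depths there were 1325, 1396 and 1272 UMIs. With 2 UMIs of the rule genes the median was 6, at a depth of 2228 UMIs. The plot of nuclei by UMIs of the rule genes shows the thinly filled range.

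**Figure D1:**
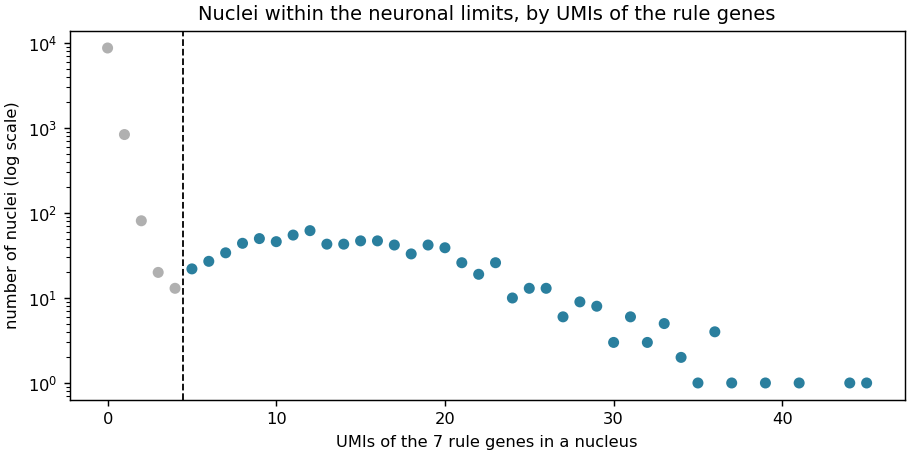
Number of nuclei within the neuronal limits (vertical axis, log scale) by UMIs of the 7 rule genes in a nucleus (horizontal axis); grey points lie below the threshold of 5 (dashed line), blue points are the 835 ependymal nuclei. Counts drop from 8741 nuclei at 0 to 13 at 4 UMIs, and climb again above the threshold.

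The label was checked on 18 ependymal markers outside the rule, of which 14 were in the table. Together they stood at 5878, 5944 and 6443 CPM in the ependymal nuclei of the 3 sets, against 368 CPM in neuron-poor astrocytes, 378 in neurons and 267 in oligodendrocytes. FOXJ1, TPPP3, CCDC153, DYDC2, LRRIQ1, CFAP299, DNAH9 and S100B were among those at least 2-fold higher than in astrocytes, with the same direction in all 3 sets. SNTN, a ciliary tip protein, had 0 UMIs. In ratios a count this low was set to a floor of 3, which is 1.68 CPM or a UMI in 0.359% of ependymal nuclei. The sum of these markers went with the label, and SNTN did not.

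Markers of neighbouring cell types were compared with the same groups. The 13 choroid plexus markers in the table summed to 393 CPM, below the 518 CPM in neuron-poor astrocytes and the 1052 CPM in neurons. TRPM3 alone gave 223, 428 and 960 CPM of these sums, and the rest of the sum was larger in ependymal nuclei. With every nucleus thinned to 1000 UMIs, HTR2C and SLC4A5 had a UMI in 2.51% and 3.51% of ependymal nuclei. In neuron-poor astrocytes those shares were 0.678% and 1.46%. AQP1 was at 0.501% against 0.0678%. Other markers of the list were scarce or went the other way. FOLR1, a folate receptor of choroid plexus epithelium, was at 0, CLIC6 had 2 UMIs and KL had 7. The choroid plexus sum was uneven, at 322, 308 and 606 CPM in the 3 sets. TTR, the thyroxine carrier that choroid plexus makes in bulk, had 38 UMIs in 23 ependymal nuclei (2.75%, 1.75 to 4.11%), with up to 15 in 1 nucleus, against a UMI in 3.71% of neuron-poor astrocytes. Its levels in the 3 sets, 13.9, 9.02 and 48.4 CPM, were also uneven. Tanycyte markers, 10 genes, summed to 371 CPM against 610 in neuron-poor astrocytes.

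Microglial, endothelial and mural or fibroblast lists stayed at 116, 106 and 146 CPM in ependymal nuclei, and TYROBP, CLDN5, COL1A1 and COL1A2 were at 0. Those lists reached 4566 CPM in microglia, and 4948 and 1071 CPM in vascular nuclei. Oligodendrocyte markers stood at 374, 424 and 204 CPM in the 3 sets, against 14358 CPM in oligodendrocytes. The 11 astrocyte markers that no rule used summed to 3459 CPM against 14788 in neuron-poor astrocytes. The 8 neuronal markers that no rule used summed to 3784 CPM, against 4499 in neuron-poor astrocytes, 5790 in oligodendrocytes and 22504 in neurons. SYT1, a synaptic vesicle protein, had a UMI in 77.3% of ependymal nuclei and 77.0% of neuron-poor astrocytes, at median depths of 1977 and 1781 UMIs, and in 53.6% and 58.4% with every nucleus thinned to 1000 UMIs. The source of these neuronal counts was not tested.

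**Figure D2:**
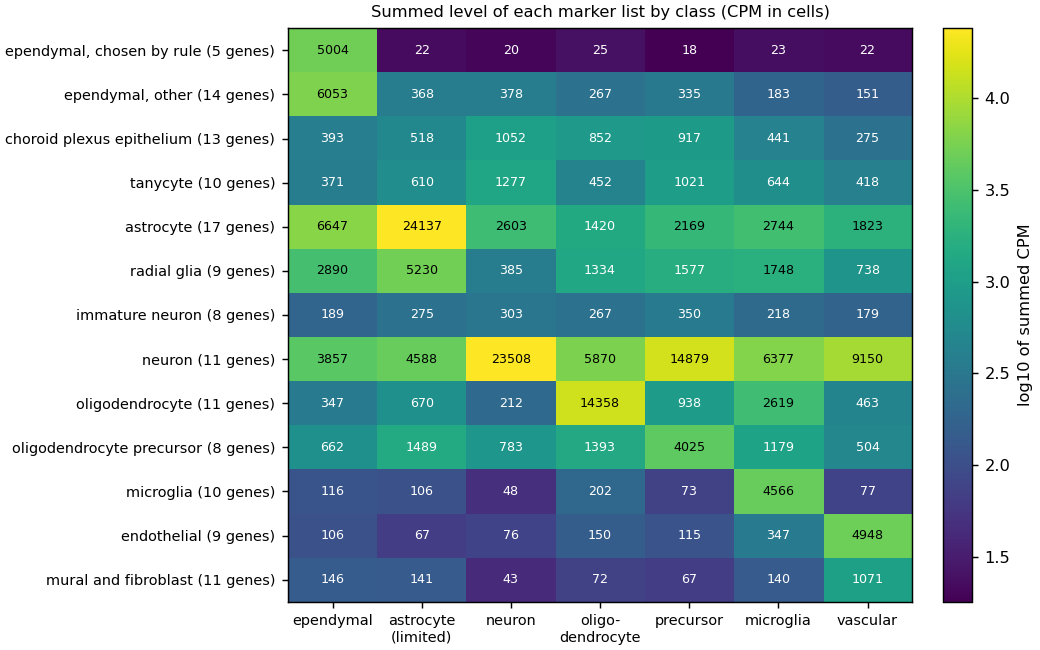
Summed level of each marker list (rows; genes in the table in brackets) in ependymal nuclei and 6 other classes (columns); numbers and the log10 colour scale are CPM. The row of 14 ependymal markers outside the rule is highest in the ependymal column, at 6053 CPM, and the choroid plexus row is not; the row chosen by the rule is a description.

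A group within the ependymal nuclei stood apart and touches several results. Clustering of the 835 nuclei alone gave 2 clusters, of 774 and 61 nuclei. The smaller held 24, 29 and 8 nuclei of the 3 sets and a median of 3796 UMIs against 1938. Of its 61 nuclei, 55 were among the presumed doublets (nuclei with the highest Scrublet scores), against 11 of 774. Over all 835 nuclei 66 were presumed doublets (7.90%; 7.05% in the whole table), and none was left out. Its leading genes were OLFM2, MIR9-1HG, ELMO1, MMD2 and SLC1A2, and those of the larger cluster were CCDC33, ESYT1, NEIL1, C20orf96 and SLC28A3. A median nucleus of the larger cluster had 468 UMIs of the 3 axoneme lists per 10000 (quartiles 419 and 514), and one of the smaller had 234 (175 and 301). Astrocyte markers outside the rules went the other way, with medians of 25.5 and 79.0 per 10000. The clusters are a description, since they were drawn from the same genes. Values without the 61 nuclei are given beside several of the results that they move, but not beside all.

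**Figure D3:**
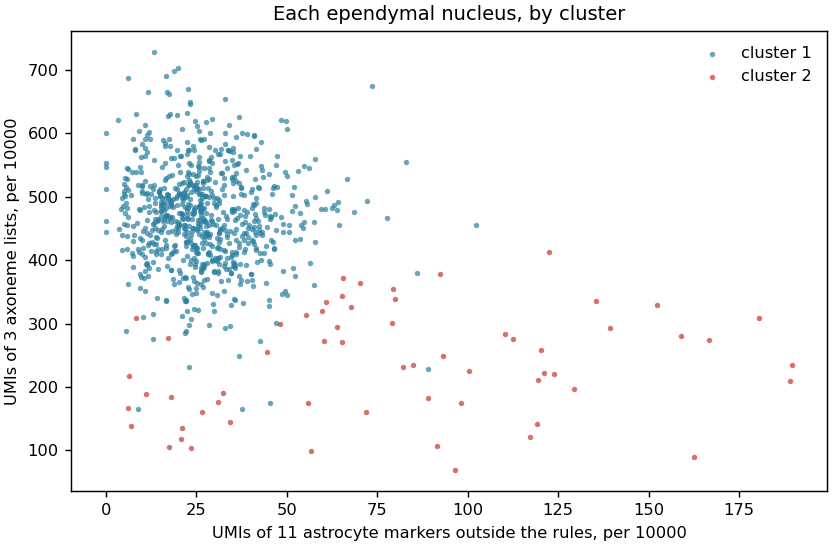
Each point is 1 ependymal nucleus, placed by its UMIs of 11 astrocyte markers outside the rules (horizontal axis) and of the 80 genes of 3 axoneme lists (vertical axis), both per 10000 UMIs. The 774 nuclei of cluster 1 (blue) centre on 468 and 25.5, and the 61 of cluster 2 (red) lie lower and spread to the right.

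Over all genes, 11583 were measured against astrocytes, meaning at least 50 UMIs on one side and enough depth on both. A gene is called higher or lower where the levels differ at least 2-fold in the pool and in the same direction in all 3 barcode sets. By that rule 12.6% of measured genes were higher and 12.3% lower in ependymal nuclei than in astrocytes. Against neuron-poor astrocytes 11354 genes were measured, with 10.2% higher and 9.72% lower. Against all nuclei outside the rule, 11689 were measured, with 19.1% higher and 13.3% lower, and a median log2 ratio of 0.13 that should be taken off the ratios of that comparison. As UMIs of the same nuclei chose the members, all counts below describe these nuclei and are not support for the choice. Large differences leaned one way: 341 genes were at least 8-fold higher than in astrocytes and 11 at least 8-fold lower. Against neuron-poor astrocytes those numbers were 344 and 37, and against all nuclei outside the rule 501 and 54. The 2 sides have unlike limits. In ratios a count under 3 was set to 3, which is 1.68 CPM in the ependymal pool of 1785887 UMIs. A gene below 8 times that level in astrocytes thus cannot be 8-fold lower. The astrocyte pool held 28628568 UMIs, so its own floor is far lower.

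Axonemal dyneins, the motors of the beat, were far higher in ependymal nuclei. Of 18 measured chains, 16 were higher than in astrocytes and 0 lower, beside the 12.6% of all genes, with a median log2 ratio of 4.79 (all genes: -0.01). Together the list stood at 13828, 14250 and 15001 CPM in the 3 sets of ependymal nuclei and at 632 CPM in neuron-poor astrocytes. Without the 61 nuclei, and against neuron-poor astrocytes, the count was 16 higher and 1 lower, with a median of 5.51.

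DNAH11, an outer-arm heavy chain, was at 1240, 1317 and 1395 CPM in the ependymal sets and at 9.23, 11.4 and 10.8 CPM in the neuron-poor astrocyte sets. The groups did not come near each other, and the ratio was 125-fold (log2 6.97, 6.72 to 7.23). Against astrocytes by their rule the log2 ratio was 5.79. These left out only nuclei that met the ependymal rule, a looser limit on UMIs of the rule genes. That ratio therefore also rests in part on the rule's own values. DNAH9, another outer-arm heavy chain, stood at 2926, 2995 and 3288 against 180, 182 and 188 CPM. With every nucleus thinned to 1000 UMIs, 92.0% of ependymal nuclei and 15.9% of neuron-poor astrocytes still had a DNAH9 UMI. For DNAH11 those shares were 68.7% and 1.03%. DNAI1, an intermediate chain that anchors the outer arm, was at 487, 528 and 553 against 9.90, 10.3 and 13.4 CPM.

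The dynein list was not uniform. DNAH2 and DNAH7, inner-arm heavy chains, had log2 ratios of 5.82 and 5.33 to astrocytes, and WDR63, an inner-arm intermediate chain, had 6.12. DNAH8 and DNAH17, heavy chains best known from sperm flagella, were not called against astrocytes. DNAH8 had 15 UMIs, 8.40 CPM in ependymal nuclei against 14.2 in astrocytes and 22.3 in neurons, and it was lower than in all nuclei outside the rule (log2 -1.16). DNAH17 was at 16.2 against 13.9 CPM (log2 0.23). So the paralogous outer-arm chains parted, with DNAH9 and DNAH11 high and DNAH8 and DNAH17 at or below the level of other cells. DNAL1, a light chain, was higher by a log2 ratio of 1.92.

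Factors that fold dyneins in the cytoplasm and dock them on the axoneme were higher too. All 13 measured genes of that list were higher than in astrocytes, beside 12.6% of all genes, with a median log2 ratio of 3.63. Of the list, 11 names, older symbols included, had no row in the table. ARMC4, a docking-complex subunit, was at 507, 591 and 574 CPM in ependymal sets against 3.15, 3.42 and 3.60 CPM in neuron-poor astrocytes. Its ratio of 165-fold (log2 7.36, 6.92 to 7.84) was the highest of the list. DNAAF1, an assembly factor, was at 143, 111 and 143 against 0.900, 1.14 and 1.03 CPM. ZMYND10 and DNAAF3, both assembly factors, had log2 ratios of 4.88 and 4.95 to astrocytes. The smallest differences of the list were in DNAAF2 (log2 1.19) and DNAAF5 (log2 1.27).

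Radial spokes, the nexin link and the central pair regulate the dyneins and set the beat. All 29 measured genes of this list were higher than in astrocytes, beside 12.6% of all genes, with a median log2 ratio of 4.52. Against neuron-poor astrocytes it was 28 of 28 (all genes: 10.2%), and against all nuclei outside the rule 28 of 29 (all genes: 19.1%). HYDIN, a giant central-pair protein, was at 2146, 2207 and 2415 CPM against 54.0, 51.3 and 52.2 in neuron-poor astrocytes, and 86.5% against 4.95% of thinned nuclei had a UMI. CFAP54, also of the central pair, was at 2605, 2868 and 2804 against 53.3, 49.0 and 43.2 CPM. DRC7, a nexin link subunit, was at 124, 158 and 177 CPM, while neuron-poor astrocytes had 6 UMIs in all (0.675, 0.684 and 0 CPM). That ratio was 319-fold, with a wide log2 interval of 7.18 to 9.78 from the few counts. RSPH1, a radial spoke head protein, was 284 CPM against 7.26 in astrocytes. CCDC65, of the nexin link, differed least (log2 1.23).

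Tektins and other proteins inside or at the tip of the doublet microtubules were also higher. Of 27 measured genes, 26 were higher than in astrocytes and 0 lower, beside 12.6% and 12.3% of all genes. The median log2 ratio was 4.58. CFAP45, a doublet inner protein, had the highest ratio to astrocytes among genes with at least 100 UMIs and a symbol. It was at 140, 191 and 200 CPM in ependymal sets against 0.838 CPM in astrocytes (log2 7.70), and 5 UMIs in neuron-poor astrocytes. CFAP161, likewise inside the doublet, was at 132 against 0.734 CPM. TEKT1, a tektin filament protein, was at 349, 355 and 377 against 6.08, 4.79 and 4.37 CPM in neuron-poor astrocytes. NME7, which is also part of the γ-tubulin complex of all cells, was the gene not called (log2 0.45).

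**Figure D4:**
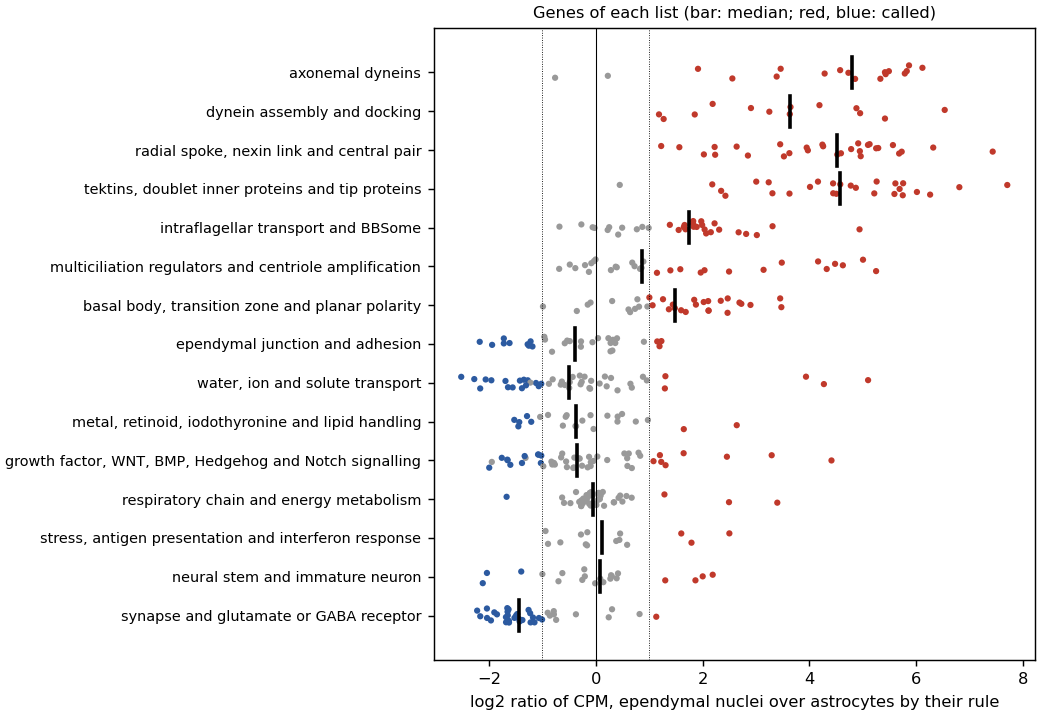
Log2 ratio of CPM in ependymal nuclei over astrocytes by their rule (horizontal axis) for each measured gene (point) of 15 lists (rows); black bars are list medians, dotted lines mark 2-fold, and red and blue points were called higher or lower. The first 4 lists, of the axoneme and its assembly, have medians of 4.79, 3.63, 4.52 and 4.58, and transport, signalling and synaptic lists lie around or below 0.

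Intraflagellar transport, which carries parts along every cilium, motile or primary, differed less. Of 32 measured genes 21 were higher than in astrocytes and 0 lower, beside 12.6% and 12.3% of all genes. The median log2 ratio was 1.75. KIF27, a kinesin linked to motile cilia, led the list at 618, 710 and 673 against 25.7, 23.7 and 20.3 CPM in neuron-poor astrocytes. KIF9, a kinesin of the central pair, followed with a log2 ratio of 3.31 to astrocytes. Among the transport particles proper, IFT46 was at 105, 69.1 and 96.8 CPM against 13.0, 13.9 and 12.1, and IFT122 at 290 CPM against 43.4. BBS2, a BBSome subunit, was not called against astrocytes (log2 -0.68), but was lower than in neuron-poor astrocytes at 58.9, 67.7 and 75.7 against 177, 187 and 196 CPM (log2 -1.49). KIF3B, a subunit of the anterograde motor, was level at 65.0 against 65.9 CPM in astrocytes.

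Regulators that switch on the multiciliated programme and multiply centrioles gave 14 higher and 0 lower of 30 measured, with a median log2 ratio of 0.88. Over all genes 12.6% were higher and 12.3% lower. Against neuron-poor astrocytes 16 of 31 were higher and 1 lower, beside 10.2% and 9.72% of all genes. FOXJ1, the master regulator of motile cilia, was scarce in nuclear RNA, with 58 UMIs. It stood at 34.1, 25.6 and 40.0 CPM against 0.450, 1.60 and 2.06 in neuron-poor astrocytes (24.3-fold, log2 4.60, 3.80 to 5.48), and 3.26% against 0.170% of thinned nuclei had a UMI. RFX2, which acts with FOXJ1, was at 1241, 1354 and 1281 against 199, 215 and 212 CPM. RFX3, its relative, was at 1190, 1278 and 1220 against 477, 486 and 508 CPM. RFX3 was called against neuron-poor astrocytes (log2 1.33) but not against astrocytes by their rule (log2 0.73), and RFX7, a broadly expressed family member, was called against neither.

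Genes that act early in the programme were seen unevenly, and MCIDAS and FOXN4, both of this list, were at 0 UMIs. TP73, upstream of FOXJ1 in multiciliated cells, was at 104, 76.7 and 101 CPM against 9.90, 8.90 and 9.77 in neuron-poor astrocytes. MYB, which acts early in multiciliogenesis, was at 37.2, 46.6 and 46.3 CPM against 0.900, 1.37 and 0.771. GMNC, which starts the programme, fell short of the minimum for a call with 37 UMIs (20.7 CPM), against 2 UMIs in neuron-poor astrocytes (log2 6.46, 5.09 to 10.1). DEUP1, which builds the deuterosomes that seed new centrioles, was at 66.6, 67.7 and 67.3 against 4.95, 3.19 and 4.11 CPM. CCNO, another gene of centriole multiplication, had 4 UMIs, and PLK4, the centriole duplication kinase, had 11 UMIs and 6.16 CPM against 5.03.

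Enzymes that modify ciliary tubulin and ciliary kinases were in the same list. TTLL6 and TTLL9, which add glutamate chains to tubulin, had log2 ratios of 5.25 and 4.32 to astrocytes. TTLL8, which adds glycine, was outside the lists and among the genes with the highest ratios (130 against 0.943 CPM, log2 7.11). NEK11 and NEK5, kinases of the NIMA family, were at 2023 and 350 CPM against 113 and 15.7 CPM in astrocytes.

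Basal body, transition zone and planar polarity genes place the cilium and gate its entry. Of 33 measured, 22 were higher than in astrocytes and 0 lower, beside 12.6% and 12.3% of all genes. The median log2 ratio was 1.48. CELSR1, a planar polarity cadherin that aligns ependymal cilia, was at 130, 168 and 164 CPM against 15.3, 15.5 and 15.9 in neuron-poor astrocytes. RPGR, a transition zone protein, was at 381, 371 and 387 against 46.4, 40.2 and 43.2 CPM. TMEM231 and TMEM67, of the transition zone barrier, had log2 ratios of 2.90 and 2.47 to astrocytes. Planar polarity paralogs parted: VANGL1 was higher, at 30.8 against 5.55 CPM, whereas VANGL2 was at 20.2 against 25.7 CPM (log2 -0.35) and CELSR2 at 7.28 against 8.07 CPM, neither of them called.

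Outside the lists, the genes with the highest ratios to astrocytes included FAM183A (238 CPM in ependymal nuclei against 1.33, log2 7.49), CCDC153 (109 against 0.768), FAM81B (173 against 1.61) and CAPSL (174 against 1.64). FNDC1, a fibronectin type III domain protein, was at 189, 230 and 225 CPM against 1.57 in astrocytes, and ADGRD2, an adhesion receptor, at 314 against 2.55 CPM. LHB, the luteinizing hormone beta subunit, had 503 UMIs and stood at 270, 272 and 311 CPM against 1.89 in astrocytes. LHB belongs to a family of near-identical hormone subunit genes, and its row can also hold reads of a neighbour or of the other strand, so its identity is uncertain.

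**Figure D5:**
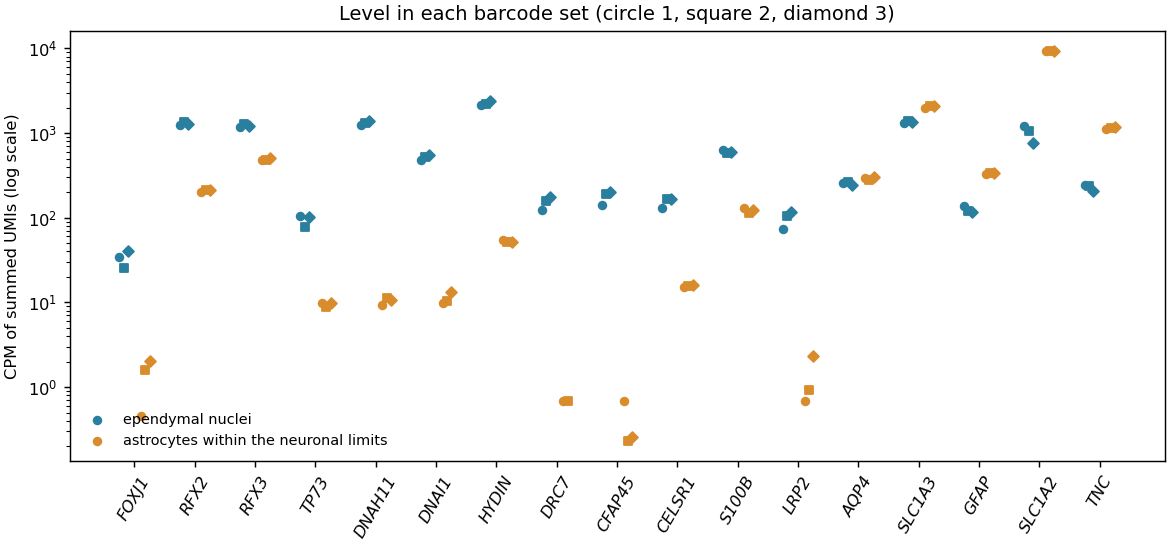
CPM of summed UMIs (vertical axis, log scale) of 17 genes in the 3 barcode sets (circle, square and diamond for sets 1, 2 and 3) of ependymal nuclei (blue) and neuron-poor astrocytes (orange); a value of 0 is not drawn. Ciliary genes on the left are higher in every ependymal set, AQP4 almost coincides, and GFAP, SLC1A2 and TNC are lower.

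Genes shared with astrocytes differed gene by gene. S100B, a calcium-binding protein of glia, was at 629, 585 and 595 CPM in ependymal sets against 129, 114 and 123 in neuron-poor astrocytes, a 4.96-fold difference. AQP4, the water channel of astrocyte endfeet and of ependyma, was at 259, 262 and 244 against 293, 276 and 305 CPM (log2 -0.18, -0.33 to -0.04). The sets of AQP4 did not overlap, but the difference was small beside the 17.7 CPM of neurons. SLC1A3, a glutamate transporter, was at 1327, 1373 and 1338 against 1968, 2067 and 2097 CPM. GFAP, the intermediate filament of astrocytes, was at 136, 120 and 116 against 327, 337 and 341 CPM and was called lower than in neuron-poor astrocytes (log2 -1.42).

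SLC1A2, the main glutamate transporter of astrocytes, was lower by a wide gap. It was at 1226, 1070 and 768 CPM in ependymal sets against 9213, 9367 and 9341 CPM (log2 -3.15). Few nuclei carried most of it: 53 ependymal nuclei (6.35%, 4.79 to 8.22%) had at least 5 UMIs and held 1237 of 1868 UMIs, and 41 of them were presumed doublets. Without cluster 2 its level was 432 CPM and the log2 ratio -4.43. A UMI was found in 38.5% of thinned ependymal nuclei and 97.4% of thinned neuron-poor astrocytes.

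Junction and adhesion genes leaned lower. Of 30 measured, 3 were higher and 9 lower than in astrocytes, with a median log2 ratio of -0.38, beside 12.6% and 12.3% of all genes. Against neuron-poor astrocytes 1 was higher and 10 lower, with a median of -0.44, beside 10.2% and 9.72% of all genes. CDH2, N-cadherin, which holds ependymal cells together, was somewhat higher in every set but short of 2-fold. It was at 491, 463 and 448 against 362, 370 and 376 CPM in neuron-poor astrocytes. CLDN10, a claudin, was at 23.2, 10.5 and 4.21 against 109, 109 and 115 CPM, and its log2 ratio of -3.04 became -4.59 without cluster 2. GJB6 (connexin 30) had 9 UMIs, 5.04 against 30.8 CPM. GJA1 (connexin 43) was at 63.5, 72.2 and 67.3 against 119, 117 and 132 CPM, short of 2-fold. CADM2 and PCDH9, adhesion molecules of neurons and glia, were lower by log2 ratios of -1.65 and -1.97. CDHR3, a cadherin-related protein of ciliated airway cells, was higher than in astrocytes by their rule (log2 1.23) but not than in neuron-poor astrocytes (log2 0.31).

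Transport genes gave 5 higher and 16 lower of 46 measured, beside 12.6% and 12.3% of all genes, with a median log2 ratio of -0.49. LRP2 (megalin), an endocytic receptor of fluid-facing epithelia, was at 74.4, 105 and 116 CPM against 0.675, 0.912 and 2.31 in neuron-poor astrocytes. Its ratio was 77.0-fold (log2 6.27, 5.53 to 7.11), and 8.65% against 0.153% of thinned nuclei had a UMI. SLC16A12, a creatine transporter, was at 33.0 against 2.99 CPM and ABCC9, a potassium channel subunit, at 47.6 against 4.17 CPM. SLCO1C1, a thyroxine transporter, was at 26.3, 28.6 and 21.0 against 216, 207 and 209 CPM, and its log2 ratio of -3.03 became -4.07 without cluster 2. CA2, a carbonic anhydrase, had 3 UMIs, a log2 ratio of -3.15 with an interval of -5.44 to -1.58.

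Metal, retinoid and lipid handling gave 2 higher and 5 lower of 23 measured (median log2 -0.37), and 2 and 9 against neuron-poor astrocytes (median -0.54). The shares over all genes were 12.6% and 12.3%, and 10.2% and 9.72% against neuron-poor astrocytes. ALDH1A2, which makes retinoic acid, was at 79.0, 79.7 and 105 CPM against 13.7, 16.9 and 17.0 in neuron-poor astrocytes. CP (ceruloplasmin) was the other gene called, with 27 UMIs that were uneven over the sets at 7.75, 10.5 and 31.6 CPM. LRP1 and LRP1B, lipoprotein receptors, were lower than in astrocytes by log2 ratios of -1.43 and -1.52.

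Signalling genes gave 8 higher and 11 lower of 50 measured (median log2 -0.36), beside 12.6% and 12.3% of all genes. Against neuron-poor astrocytes the split was 3 and 20, beside 10.2% and 9.72% of all genes, so it depends on which astrocytes are compared. The 3 higher genes were the lymphatic growth factor VEGFC, at 57.3, 55.6 and 73.6 against 3.83, 2.74 and 2.31 CPM, IGFBP7, at 85.2, 107 and 109 against 9.90, 8.67 and 7.97 CPM, and BMP6, at 149, 105 and 160 against 10.1, 14.1 and 12.6 CPM. VEGFA, the relative of VEGFC, went the other way at 17.1, 19.5 and 14.7 against 95.9, 99.9 and 98.4 CPM, a log2 ratio of -2.50 that became -3.41 without cluster 2. WNT7A and WNT7B had 4 UMIs each, at 2.24 CPM against 35.0 and 15.9 CPM. HES5, a Notch target, was at 8.96 against 54.1 CPM.

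Stem cell and immature neuron genes gave 4 higher and 3 lower of 21 measured (median log2 0.09), and 3 and 7 of 25 against neuron-poor astrocytes (median -0.53). With 12.6% and 12.3% of all genes called against astrocytes, the first counts were near those of any genes. Against neuron-poor astrocytes the shares were 10.2% and 9.72%. PROM1 (CD133), a protein of membrane protrusions, was at 82.1, 64.6 and 69.4 against 31.5, 28.3 and 21.6 CPM. SOX6, a transcription factor of neural progenitors, was at 1038, 1037 and 993 against 468, 452 and 452 CPM, and MEIS2, another, at 1017, 923 and 911 against 328, 335 and 330 CPM. VIM, the intermediate filament of ependyma and radial glia, had 42 UMIs and was higher than in astrocytes (log2 1.30) but not than in neuron-poor astrocytes (log2 0.50). TNC, a matrix protein of radial glia and astrocytes, was at 243, 238 and 208 against 1127, 1159 and 1163 CPM, and without cluster 2 its level went from 232 to 150 CPM. HOPX was at 20.2 against 158 CPM, and DCX, of migrating neurons, at 20.7 against 96.4 CPM (13.2 CPM without cluster 2).

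Respiratory chain and energy genes were near level, with 3 higher and 1 lower of 43 measured (median log2 -0.06), beside 12.6% and 12.3% of all genes. AK1, an adenylate kinase that regenerates ATP, was at 169, 155 and 145 CPM against 19.4, 15.5 and 17.7 in neuron-poor astrocytes. The ciliary adenylate kinases AK7 and AK9, counted above with the axoneme lists, stood at 362 and 539 CPM against 3.70 and 9.20. SDHC, of respiratory complex II, was at 126, 153 and 168 against 27.9, 26.5 and 27.8 CPM. Stress and immune genes gave 3 higher and 0 lower of 14 measured (median log2 0.11), and 3 and 2 of 16 against neuron-poor astrocytes (median -0.30). In the first comparison 12.6% of all genes were higher and 12.3% lower, and in the second 10.2% and 9.72%. HSPH1, a heat shock protein, was at 130, 128 and 145 against 35.6, 34.9 and 36.0 CPM.

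Synaptic genes gave 1 higher and 28 lower of 38 measured against astrocytes by their rule (median log2 -1.43), beside 12.6% and 12.3% of all genes. Against neuron-poor astrocytes the numbers were 8 lower and 2 higher (median -0.40), beside 9.72% and 10.2%. GRIN2A, a glutamate receptor subunit, had log2 ratios of -2.04 and -0.52 in the 2 comparisons. Astrocytes past the neuronal limits, 22.0% of nuclei but a larger share of UMIs, count only in the first comparison. Their part in this result was not tested. SHANK2, a postsynaptic scaffold, was higher in both, at 964, 923 and 978 CPM in ependymal sets against 170, 166 and 176 in neuron-poor astrocytes, and exceeded the 768 CPM of neurons. GRM3, a metabotropic glutamate receptor, was lower in both, at 134 CPM against 622 and 1051 CPM, and its level was 67.9 CPM without cluster 2.

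The genes lowest against neuron-poor astrocytes were SDS (2.24 against 39.8 CPM, log2 -4.15), WNT7A, ARSJ (5.60 against 78.4 CPM), VIT (5.04 against 63.9 CPM) and SLC7A10, a serine and glycine transporter of astrocytes (2.80 against 33.0 CPM). Each rested on 4 to 10 UMIs in ependymal nuclei. Without cluster 2, VIT stood at 1.32 CPM and SLC7A10 had no UMI. GALNT9 and UNC5A, among the lowest against astrocytes by their rule, were not called there: GALNT9 went from a log2 ratio of -3.04 to -0.43 and UNC5A from -2.92 to -0.46. Without cluster 2 UNC5A was called lower than in neuron-poor astrocytes as well (log2 -1.34), and GALNT9 was not (log2 -0.20). Neurons had 49.0 and 106 CPM of these genes.

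Some abundant genes outside the lists were chosen after their values were seen. NRXN3, a presynaptic adhesion molecule, was at 6991, 7398 and 8105 CPM in ependymal sets against 954, 886 and 963 in neuron-poor astrocytes and 4878 in neurons. FOXP2, a transcription factor best known from neurons, was at 284, 298 and 263 against 26.8, 20.8 and 21.8 CPM, and MET, the hepatocyte growth factor receptor, at 129, 131 and 128 against 7.20, 8.21 and 7.20 CPM. DPP10, a subunit of potassium channels, was at 5261, 5477 and 5619 against 1099, 1109 and 1159 CPM.

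Ependymal nuclei were alike across barcode sets. Of 1364 genes with at least 300 UMIs, the median ratio of the highest to the lowest set was 1.15 and the 95th percentile 1.42. Only 3 exceeded 2: LUZP2 (324, 195 and 132 CPM), MBP (205, 227 and 94.7 CPM) and DGKG (293, 176 and 143 CPM). All were lowest in set 3, which also had the fewest nuclei of cluster 2. Without cluster 2 none of the 3 exceeded 2: LUZP2 stood at 97.2, 109 and 96.8 CPM, MBP at 72.4, 71.1 and 94.6 CPM and DGKG at 206, 142 and 124 CPM. LUZP2 was at 1771 CPM in neuron-poor astrocytes and MBP at 8960 CPM in oligodendrocytes.

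Variation among single nuclei was measured as the variance over the mean of counts thinned to 1000 UMIs, which left out 37 shallower nuclei (4.43%) and kept 798. Over 4340 genes its median was 1.06 and its 90th percentile 1.19, where a value of 1 stands for counting error alone. The highest values belonged to MBP (6.37), SLC1A2 (3.80) and RELN (3.27), each carried by few nuclei. For MBP, 9 nuclei held 207 of 328 UMIs, and for RELN, 2 nuclei held 85 of 171. DPP10 (2.79), in contrast, varied while 97.5% of ependymal nuclei had a UMI of it. CTNNA2 (1.86) and KIF26B (1.84) also varied widely, and at 709 CPM KIF26B was above the 137 CPM of neuron-poor astrocytes.

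Ciliary levels climbed with the UMIs of the rule genes, as did depth. In 177 nuclei with 5 to 9 UMIs of the rule genes, 249 with 10 to 14, 211 with 15 to 19 and 198 with 20 to 45, axonemal dyneins stood at 13016, 14279, 14519 and 14831 CPM. Spoke and central pair genes stood at 16541, 17730, 17959 and 19147 CPM, and tektins and doublet proteins at 9913, 10477, 11066 and 11399 CPM. Median depth climbed in the same order, from 1507 to 1862, 2103 and 2458 UMIs. Many ependymal nuclei, 591 of 835 (70.8%), also reached the astrocyte sum of 4 UMIs, mostly through ADGRV1, which had a UMI in 96.3% of ependymal nuclei and has a known role in ciliated sensory cells. The 591 had 13932 CPM of axonemal dyneins and the other 244 had 15513 CPM, with HYDIN at 2201 and 2371 CPM. SLC1A2 differed more between them, at 1238 against 407 CPM.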

How the data were processed

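Single-nucleus RNA of macaque amygdala was measured in 12 labelled samples of 1 group. The authors deposited 1 table of unnormalized UMI counts, whole numbers up to 705, with 19708 gene rows. Per the submitters' processing notes the authors used fastp, Cell Ranger 3.0.0 and the build GRCh38. As 5142 rows carry macaque identifiers (797 of them given a symbol from a reference table), build, annotation and use of strand are not settled. No coordinates or sequences are given.

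UMIs were summed per class and scaled to CPM (Python 3.11.15, numpy 2.4.6, scipy 1.17.1). The pool counts as 1 sample, so no test was run. Ratios have exact conditional binomial intervals, levels Poisson and shares Clopper-Pearson ones. A count under 3 was set to a floor of 3 in ratios, but not in levels or intervals. Measured genes had at least 50 UMIs on one side and at least 10 expected on each at the higher level. Rule genes were left out of all counts. The rule for calls was tested on simulated data, with counting error only and changes beyond the threshold in abundant genes. Recovery near the threshold or at low counts was not tested. Other classes needed 4 UMIs of their markers, and neurons 3 of RBFOX3. Doublets were scored with Scrublet (scanpy 1.11.5), at 0.8% per 1000 nuclei within each set, and kept in the main values. Leiden clusters used igraph 0.11.9.

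The members, markers and 15 lists were chosen with earlier results of these data known. Named genes are the 15 highest and 10 lowest per comparison with at least 100 UMIs on the higher side, up to 8 highest and 4 lowest per list, markers at or near 0, the 15 most variable genes and the 5 leading each cluster; other names are marked as chosen later, or complete a family or marker list. A planned search for promoter motifs was not run.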

Additional observations from a re-analysis of the deposited data

How the results depend on the processing

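The share of ependymal nuclei, 3.16%, was 2.49% with at least 10 UMIs of the rule genes, 3.47% with no neuronal limits, 2.68% with RBFOX3, GAD1 and GAD2 all at 0, 2.62% with the rule applied to nuclei thinned to 1000 UMIs and 2.93% without cluster 2, an alternative chosen after seeing the data. Without each barcode set in turn it was 3.03 to 3.32%. A 4-fold threshold left 606 genes higher and 227 lower than in astrocytes (from 1464 and 1430), 994 and 490 against all nuclei outside the rule (from 2231 and 1549), and 11 of 73 list genes lower. With only a minimum of 20 UMIs on one side, 5193 genes were higher than in all nuclei outside the rule. Every other count over all genes or over all list genes together stayed within 1.5 times its main value under the alternatives run. Among the 218 genes picked by the naming rule no called gene changed direction, but called genes outside that set did. Against neuron-poor astrocytes, 60 of the 1430 genes called lower than in astrocytes had a ratio above 0, among them GRIA1 (-1.15 to 0.23), and 1, ASIC2, was called higher; none of the 1464 called higher had a ratio below 0. Over 218 named genes and 13 settings, 2084 values moved by less than their counting interval and 750 by more. Medians near 0 could change sign: against neuron-poor astrocytes those of the stem cell and stress lists went from 0.09 to -0.53 and from 0.11 to -0.30. Choice of astrocytes moved the counts of the synaptic, signalling, stem cell, junction and metal lists by over 1.5 times, as given above. Depth limits genes such as FOXJ1, GMNC, CCNO and WNT7A, with 4 to 58 UMIs. No paired analysis was possible because the nuclei cannot be tied to samples. No replicate error can be given.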
